A study of Mus musculus with 6 samples.

Results

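Complex I genes were examined in L4/5 dorsal root ganglia (DRGs) after oral treatment with LBP, the polysaccharides of wolfberry. The members were the rows of the deposited gene table whose symbol starts with Nduf, together with Foxred1, which made 42 of 24623 genes. Of these, 37 encode structural subunits by their names, and 5 encode assembly factors (Ndufaf1, Ndufaf2, Ndufaf3, Ndufaf4 and Foxred1). The Nduf genes were taken by name, whereas Foxred1 was chosen by its difference between LBP-treated and PBS-treated DRGs on these same arrays. Its difference is therefore given as a description, without a test.

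Adult male C57BL/6 mice aged 8 to 12 weeks received LBP at 100 mg/kg by mouth for 13 consecutive days, or PBS as its vehicle. There were 3 LBP-treated and 3 PBS-treated samples, each on a GeneChip Mouse Gene 2.0 ST array, on which several short probes serve each gene. The methods describe 3 separate groups with 3 mice each, and RNA from the DRGs of each group was hybridized. This reads as a pool of mice on each array, although pooling is not named. The p-values from limma set each difference against the spread between these samples, estimated with help from all genes. If each array is a pool, this is a spread between pools and not between single mice. Values are log2 intensities, so that a difference of 1 is a doubling, and they measure the abundance of RNA and not of protein. A DRG holds neurons, satellite glia, Schwann cells, fibroblasts and blood vessels, and in such bulk tissue fewer cells of a type cannot be told apart from less RNA per cell. The sensory neuron markers Prph, Isl1, Avil, Pou4f1, Tubb3, Rbfox3 and Scn10a had group means of 9.15 or more, against array medians of 6.45 to 6.46.

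Complex I is the NADH dehydrogenase of the mitochondrial respiratory chain. It takes electrons from NADH in an arm that reaches into the matrix, passes them over a flavin and iron-sulfur clusters to ubiquinone, and pumps protons through an arm in the inner membrane. Its core subunits carry out this chemistry and come from both the nuclear and the mitochondrial genome, accessory subunits surround them, and assembly factors put the modules together without remaining in the finished complex. Sensory neurons support very long axons and rely on respiration for this. FOXRED1 is a mitochondrial protein with an FAD-dependent oxidoreductase domain, and in humans its loss causes complex I deficiency.

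Foxred1 was lower in LBP-treated DRGs. Its log2 intensity was 8.17, 7.93 and 7.82 in LBP replicates 1, 2 and 3, against 8.66, 8.61 and 8.68 in PBS replicates 1, 2 and 3. Every LBP value lay below every PBS value, with a gap of 0.44 between the closest samples. Foxred1 averaged 7.97 ± 0.18 in LBP-treated DRGs, against 8.65 ± 0.04 in PBS-treated DRGs (SD, n = 3 each). The log2 fold change was thus -0.68, with a standard error of 0.11, or 0.624 times the PBS level. The LBP samples were more spread than the PBS samples, and the difference lay between -0.78 and -0.60 when any single array was left out. Groups that did not overlap, with LBP lower, were found for 5.28% of all genes, and nothing is read from this for a gene chosen on the same difference. Foxred2, which shares the domain name and is not known as a complex I factor, differed by -0.08 on the log2 scale, with a standard error of 0.12 (exact permutation p = 0.6).

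The promoter of Foxred1 is printed because its neighbour Srpr starts within it. In the GRCm38.p6 annotation of RefSeq, Foxred1 and Srpr, the gene of the signal recognition particle receptor subunit that docks ribosomes at the endoplasmic reticulum, are transcribed away from each other. The promoter windows of both genes, each 300 bases long, share 247 bases. The window of Foxred1 is chr9:35211006-35211305 on the minus strand, with a GC content of 66.7%. The window of Ndufb11, the Nduf gene with the largest difference below, is chrX:20617570-20617869 on the minus strand. That of Ndufa9, 1 of the Nduf genes that were higher in every LBP sample, is chr6:126849095-126849394 on the minus strand. Each runs 5′ to 3′ on the strand of its gene. Capitals mark the GC box GGGCGG in Foxred1 (Ndufb11 has none) and the YY1 motif AAGATGGCG in Ndufa9, in either orientation.
Foxred1: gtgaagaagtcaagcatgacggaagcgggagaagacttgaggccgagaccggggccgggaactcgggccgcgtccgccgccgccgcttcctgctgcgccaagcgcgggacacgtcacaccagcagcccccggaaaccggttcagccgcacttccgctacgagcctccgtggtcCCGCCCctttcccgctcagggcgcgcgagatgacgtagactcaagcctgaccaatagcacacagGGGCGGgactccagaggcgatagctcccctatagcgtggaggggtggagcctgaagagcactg
Ndufb11: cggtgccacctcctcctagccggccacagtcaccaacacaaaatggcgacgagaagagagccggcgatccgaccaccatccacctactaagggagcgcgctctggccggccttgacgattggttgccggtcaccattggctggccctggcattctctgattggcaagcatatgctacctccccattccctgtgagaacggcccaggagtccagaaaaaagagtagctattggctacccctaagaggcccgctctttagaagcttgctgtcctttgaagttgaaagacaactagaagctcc
Ndufa9: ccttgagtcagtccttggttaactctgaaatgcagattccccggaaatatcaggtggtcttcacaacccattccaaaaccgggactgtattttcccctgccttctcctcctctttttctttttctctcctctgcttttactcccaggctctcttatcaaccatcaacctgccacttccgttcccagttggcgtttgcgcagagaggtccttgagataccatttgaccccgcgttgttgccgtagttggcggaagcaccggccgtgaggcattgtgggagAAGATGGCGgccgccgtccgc

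The Foxred1 window held 2 matches to the GC box, and the Ndufb11 window held none of the 4 motifs searched. RefSeq windows were found for 37 of the 42 members (39 windows), and each motif was searched on both strands. The GC box was in 21 of the 39 windows and in 35.7% of all 32851 windows. The YY1 motif was in 5 windows (Ndufa9, Ndufc1, Ndufs4, Ndufs6 and Ndufs7), against 1.40% of all windows. The NRF1 motif GCGCATGCG was in 3 (Ndufa11, Ndufa8 and Ndufaf4), against 1.75%. The ETS motif CCGGAAG was in 5 (Ndufaf1, Ndufb6, Ndufb7, Ndufs3 and Ndufs8), against 8.86%. The ends of some motifs can overlap (the ETS motif ends as the YY1 motif begins, and the YY1 motif ends as the NRF1 motif begins), and a match describes the sequence and not the binding of a factor.

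The neighbours of Foxred1 did not show a difference of its size. Foxred1 was chosen on its difference and its neighbours were not, so nothing is read from this contrast. Srpr was at 10.11, 10.13 and 9.95 in LBP-treated DRGs, against 10.27, 10.16 and 10.18 in PBS-treated DRGs. The Srpr values of the groups did not overlap either, and its log2 fold change was -0.14, with a standard error of 0.10 (exact permutation p = 0.1). Tirap, which encodes an adaptor of Toll-like receptors and lies on the other side of Foxred1, had a log2 fold change of -0.12 (exact permutation p = 0.4). Dcps, the gene of a scavenger decapping enzyme, was at 6.39, 6.63 and 6.40 in LBP-treated DRGs, against 6.12, 6.25 and 6.19 in PBS-treated DRGs. This was a log2 fold change of 0.29 in the opposite direction to Foxred1 with a standard error of 0.10 (limma adjusted p = 0.9989, exact permutation p = 0.1). Fam118b (0.06), Rpusd4 (-0.03) and the non-coding 4930581F22Rik (-0.02) had overlapping groups.

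**Figure D1:**
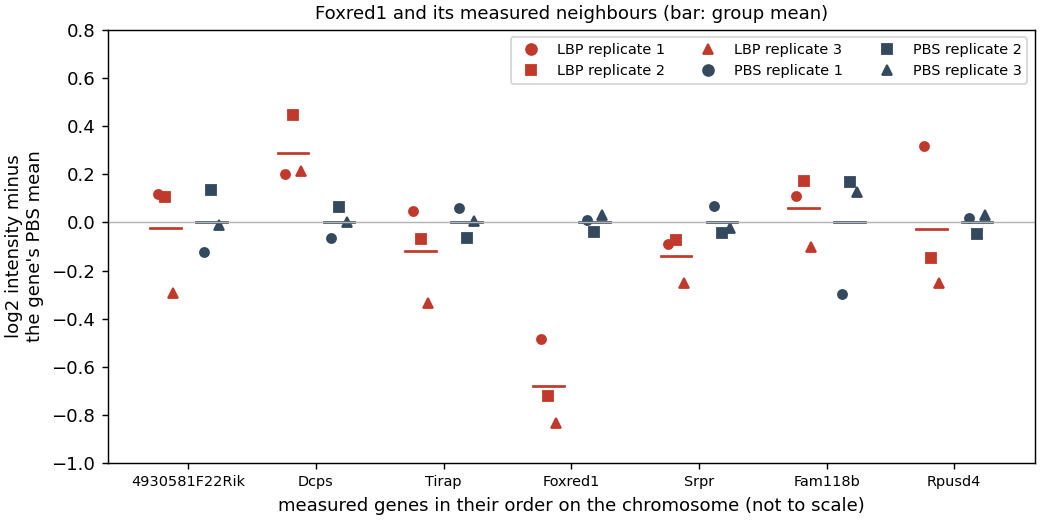
Log2 intensity of Foxred1 and of the 3 measured genes on each side of it, each minus the gene's PBS mean, in the order of the chromosome. Points are arrays and bars are group means (n = 3 each), and Foxred1 lies at -0.68 on average in LBP-treated DRGs while the means of its neighbours lie between -0.14 and 0.29.

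The 4 assembly factors listed under Ndufaf names, Ndufaf1 to Ndufaf4, were at nearly the same mean level in both groups. Ndufaf1, which helps to build the membrane arm, was at 8.54, 8.24 and 8.52 in LBP-treated DRGs, against 8.51, 8.29 and 8.42 in PBS-treated DRGs. Ndufaf2, which acts late, as the NADH-oxidizing module is added, was at 7.49, 7.00 and 7.26 in LBP-treated DRGs, against 7.33, 7.17 and 7.23 in PBS-treated DRGs. In both genes the LBP values spanned the PBS values.
Ndufaf3 and Ndufaf4 encode partners in the assembly of the matrix arm. Ndufaf3 was at 8.34, 8.31 and 8.48 in LBP-treated DRGs, against 8.29, 8.37 and 8.41 in PBS-treated DRGs. Ndufaf4 was at 8.44, 8.05 and 8.53 in LBP-treated DRGs, against 8.34, 8.39 and 8.41 in PBS-treated DRGs. The log2 fold changes were 0.02 for Ndufaf1, 0.01 for Ndufaf2, 0.02 for Ndufaf3 and -0.04 for Ndufaf4, with standard errors of 0.10 to 0.13 and exact permutation p-values of 0.8 to 1.0. The median of these 4 genes was 0.01, against -0.00 for all genes. All 4 were below their PBS mean in LBP replicate 2, and all 4 were above it in LBP replicate 3.

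Further assembly factors stand in the table under older symbols, and the name rule did not take them in. They were looked up through the RefSeq synonyms after the values of the members had been seen. Ndufaf5, which encodes an enzyme that modifies the core subunit NDUFS7 and is listed as 2310003L22Rik, was at 7.91, 7.64 and 7.90 in LBP-treated DRGs, against 7.56, 7.60 and 7.57 in PBS-treated DRGs. Its log2 fold change was 0.24 with a standard error of 0.10 and an unadjusted p under 0.05 in limma (adjusted p = 0.9996, exact permutation p = 0.1). Ndufaf6, listed as 2310030N02Rik, was at 6.73, 6.65 and 7.03 in LBP-treated DRGs, against 6.64, 6.50 and 6.53 in PBS-treated DRGs, and its log2 fold change was 0.25 (exact permutation p = 0.1). In both genes the LBP values lay above the PBS values.
Ndufaf8, which encodes the partner of NDUFAF5 and is listed as 1810043H04Rik, was at 7.32, 7.30 and 7.31 in LBP-treated DRGs, against 7.14, 7.18 and 7.22 in PBS-treated DRGs (log2 fold change 0.13, exact permutation p = 0.1). Ndufaf7, listed as 2410091C18Rik, which encodes a methyltransferase, had overlapping groups and a log2 fold change of 0.07. Thus 3 of these 4 genes were higher in every LBP sample than in any PBS sample, which held for 4.35% of all genes, and none passed the adjustment over all genes. Foxred1 differed in direction from all 4.

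**Figure D2:**
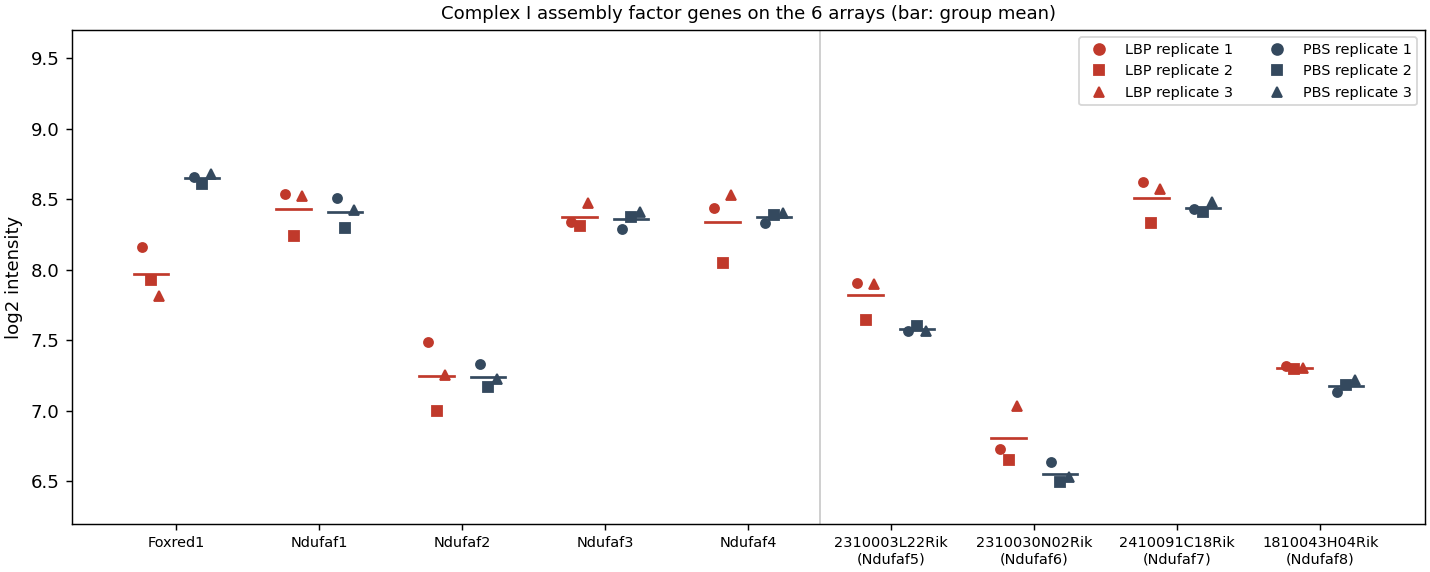
Log2 intensity of Foxred1, Ndufaf1 to Ndufaf4 and, right of the line, the 4 factors listed under older symbols. Points are arrays and bars are group means (n = 3 each), with LBP left of PBS. Foxred1 is the gene with all LBP values below the PBS values, and 2310003L22Rik, 2310030N02Rik and 1810043H04Rik have all LBP values above them.

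Of 11 other assembly genes outside the Nduf and Foxred names, 10 were measured. Of these, 0 had a p under 0.05 from limma (2.07% of all genes higher and 2.65% lower). Sfxn4, which encodes a sideroflexin needed for complex I assembly, was at 8.23, 8.06 and 8.24 in LBP-treated DRGs, against 8.05, 7.92 and 7.95 in PBS-treated DRGs (log2 fold change 0.20, exact permutation p = 0.1). Nubpl, which encodes a protein that delivers iron-sulfur clusters to complex I, had a log2 fold change of 0.10 with LBP values above PBS values. Timmdc1, a membrane arm factor listed as 4930455C21Rik, had one of -0.14 with LBP values below PBS values. Acad9, Ecsit, Tmem126b, Tmem126a, Tmem70, Tmem186 and Lyrm2 had overlapping groups and log2 fold changes from -0.05 to 0.11. Groups thus did not overlap in 3 of the 10 genes (9.63% of all genes), with 2 higher (4.35% of all genes) and 1 lower (5.28% of all genes). Sfxn4, Nubpl and Timmdc1 were singled out after their values were seen, and nothing is read from so few genes.

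Structural subunits were slightly higher on average in LBP-treated DRGs, and the 3 LBP samples did not behave alike. Of 37 subunit genes, 30 were higher in the LBP mean and 7 lower, the median log2 fold change was 0.08, and 49.7% of all genes were positive. At an adjusted p under 0.05 from limma, 0 of the 41 Nduf genes passed, with a lowest adjusted p of 0.9989, while 2 of all genes did (0.00812%). At an unadjusted p under 0.05, 1 of the 41 Nduf genes was higher (2.07% of all genes) and 0 were lower (2.65% of all genes). The groups did not overlap in 3 of the 41 (9.63% of all genes), all of them higher (4.35% of all genes). At these counts the Nduf genes were not far from the background.

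The core subunits encoded in the nucleus hold the flavin and the iron-sulfur clusters. Ndufv2, an iron-sulfur subunit of the module that oxidizes NADH, was at 10.04, 9.85 and 10.33 in LBP-treated DRGs, against 9.65, 9.76 and 9.95 in PBS-treated DRGs. This was the largest difference among the core subunits, and the groups overlapped (log2 fold change 0.28 with a standard error of 0.14, exact permutation p = 0.2). Ndufv1, which binds the flavin and NADH beside Ndufv2, was at 9.43, 9.51 and 9.41 in LBP-treated DRGs, against 9.57, 9.46 and 9.56 in PBS-treated DRGs, a log2 fold change of -0.08. The difference between these partners was thus not shared in direction, and neither passed the test.
Ndufs1, the largest subunit and the carrier of several clusters, was at 8.58, 8.35 and 8.52 in LBP-treated DRGs, against 8.37, 8.31 and 8.43 in PBS-treated DRGs (log2 fold change 0.11). Ndufs7, which carries the last cluster before ubiquinone, had a log2 fold change of 0.08. Ndufs8, a further cluster subunit, had one of 0.07 and Ndufs3 one of -0.03. Standard errors of these 4 lay between 0.09 and 0.10, so that each difference was smaller than or close to its error.

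Among the accessory subunits, Ndufb11, a membrane arm subunit encoded on the X chromosome, had the largest difference of all Nduf genes. It was at 6.49, 6.02 and 6.62 in LBP-treated DRGs, against 6.02, 5.61 and 5.73 in PBS-treated DRGs. LBP replicates 1 and 3 lay above all PBS samples, and LBP replicate 2 was level with PBS replicate 1. The log2 fold change was 0.59 with a standard error of 0.17 (limma p = 0.00524, adjusted p = 0.9989, exact permutation p = 0.2), and 3 arrays against 3 cannot give an exact two-sided p below 0.1. Ndufb11 was 1 of 2 members (with Ndufa4l2) whose mean lay below the median of all values. Its unadjusted p from limma stayed between 0.000547 and 0.0238 when each array was left out in turn. Ndufb11 was singled out on these same arrays, so nothing is read from this range.

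The genes with groups that did not overlap were Ndufa9, Ndufa3 and Ndufa13, and their differences were small. Ndufa9, an accessory subunit near the junction of the arms, was at 10.07, 10.02 and 10.11 in LBP-treated DRGs, against 9.96, 9.92 and 9.98 in PBS-treated DRGs (log2 fold change 0.11). Ndufa3, of the membrane arm, was at 9.95, 9.93 and 10.10 in LBP-treated DRGs, against 9.89, 9.87 and 9.83 in PBS-treated DRGs (log2 fold change 0.14). Ndufa13, also known as GRIM-19, was at 9.14, 9.07 and 9.50 in LBP-treated DRGs, against 9.01, 9.04 and 9.06 in PBS-treated DRGs (log2 fold change 0.20). Each has an exact permutation p of 0.1, the smallest possible here. Every gene with groups that do not overlap has this value, so it adds nothing to the way these genes were picked. These 3 genes were singled out after their values were seen.

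Ndufa2, an accessory subunit of the matrix arm, followed Ndufb11 and Ndufv2 among the positive differences. It was at 8.43, 8.36 and 8.63 in LBP-treated DRGs, against 8.13, 8.24 and 8.42 in PBS-treated DRGs (log2 fold change 0.21 with a standard error of 0.12, exact permutation p = 0.2). The lowest differences were in Ndufa7, Ndufa4l2 and Ndufv3. Ndufa7, of the matrix arm, was at 7.68, 7.13 and 7.60 in LBP-treated DRGs, against 7.65, 7.75 and 7.67 in PBS-treated DRGs. Its mean difference of -0.22 came with a low value in LBP replicate 2 (exact permutation p = 0.3).
Ndufa4l2 is a gene of the hypoxia response in several tissues, and its protein is a relative of NDUFA4. It was at 5.86, 6.06 and 5.88 in LBP-treated DRGs, against 6.21, 5.96 and 6.06 in PBS-treated DRGs (log2 fold change -0.14, exact permutation p = 0.2). Ndufv3, a small subunit beside the flavin site, was at 9.34, 9.25 and 9.31 in LBP-treated DRGs, against 9.33, 9.51 and 9.36 in PBS-treated DRGs (log2 fold change -0.10, exact permutation p = 0.2). In all 4 of these genes the groups overlapped. Ndufa4, now regarded as a subunit of complex IV in spite of its name, had a log2 fold change of 0.17 (exact permutation p = 0.3).

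The rest of the subunits also had overlapping groups. In the matrix arm, log2 fold changes were 0.13 for Ndufa12, 0.09 for Ndufs4, 0.06 for Ndufa5 and Ndufa6 and 0.06 for Ndufs6. In the part of the membrane arm next to the matrix arm, they were 0.11 for Ndufa8, 0.10 for Ndufa1, 0.07 for Ndufa11 and 0.04 for Ndufa10. Ndufc1 and Ndufc2 had 0.01 and 0.06. The far part of the membrane arm, named for the beta subcomplex, ranged from -0.05 in Ndufb7 to 0.17 in Ndufb5 and Ndufb10 when Ndufb11 is set aside. Within this range were Ndufb2 (-0.01), Ndufb8 (0.00), Ndufb3 and Ndufb9 (0.07), Ndufb6 (0.10) and Ndufb4 (0.16). Ndufab1, the acyl carrier protein that complex I shares with mitochondrial fatty acid synthesis, had 0.16. Ndufb1, listed as Gm2695 and therefore no member, had 0.01.

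**Figure D3:**
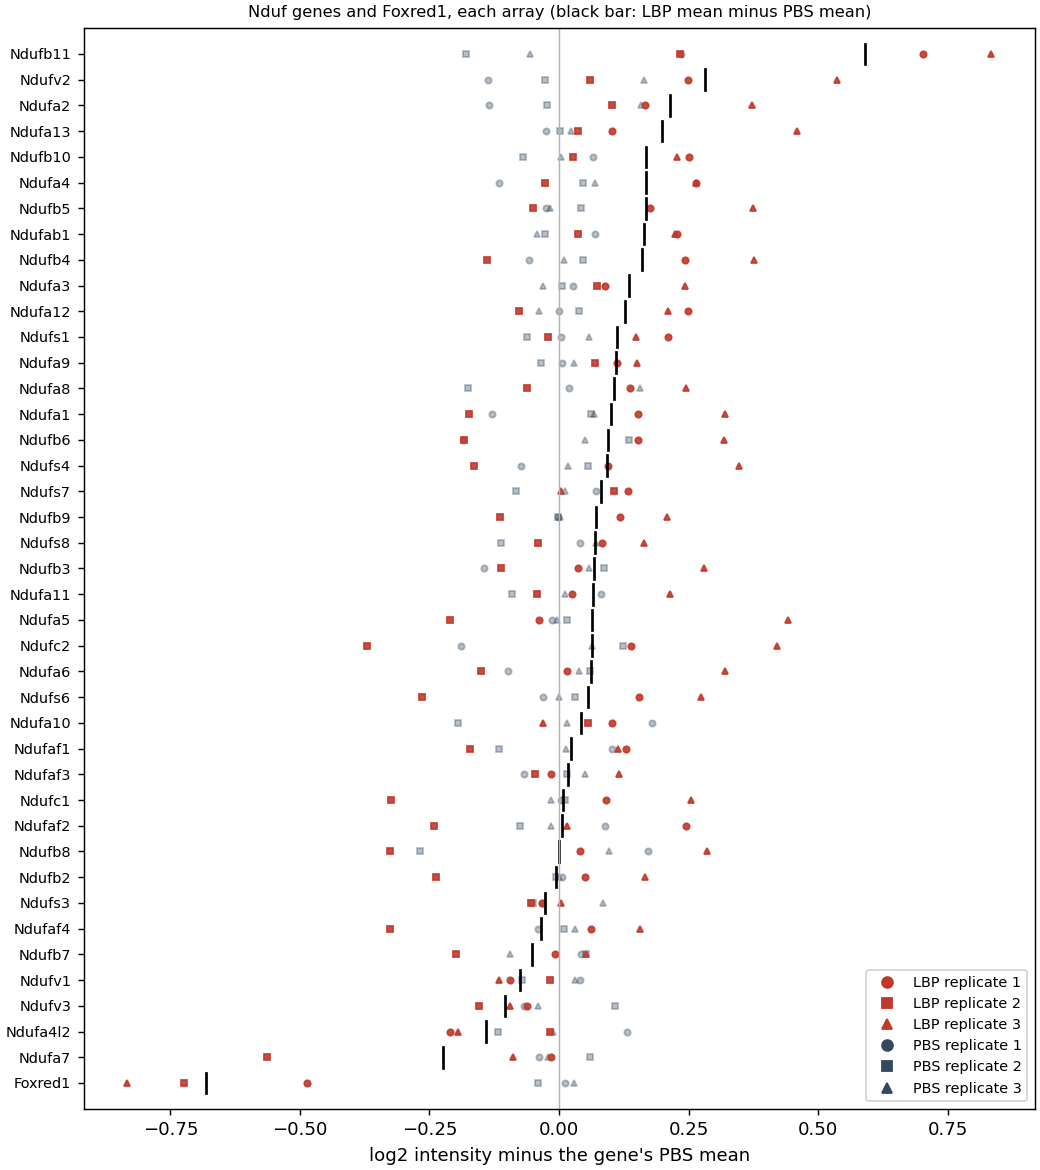
Log2 intensity of the Nduf genes named in the text and of Foxred1 on each array, minus the gene's PBS mean, ordered by the difference between the groups (black bar). LBP arrays are in red and PBS arrays in faded grey-blue. Foxred1 lies apart at the low end, and in most subunit genes the square of LBP replicate 2 is the lowest LBP value and the triangle of LBP replicate 3 the highest.

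The subunit genes moved together from sample to sample. LBP replicate 2 was the lowest LBP sample in 32 of the 37 structural genes, against 34.3% of all genes, and LBP replicate 3 was the highest in 26 of 37, against 30.7% of all genes. With every gene set against its PBS mean, the median subunit lay at 0.11, -0.05 and 0.24 in LBP replicates 1, 2 and 3, and at -0.00, -0.00 and 0.02 in PBS replicates 1, 2 and 3. On LBP replicate 2, 26 of the 37 genes were below their PBS mean, whereas 30 were above it on replicate 1 and 32 on replicate 3. The SD was larger among LBP samples than among PBS samples in 28 of 37 genes (58.4% of all genes). Its median was 0.17 in LBP-treated ganglia and 0.08 in PBS-treated ganglia, against 0.13 and 0.11 over all genes.
The accessory genes of both arms had similar medians. The 9 accessory genes of the matrix arm had medians of 0.09, -0.15 and 0.27 in LBP replicates 1, 2 and 3, and the 19 measured accessory genes of the membrane arm, Gm2695 included, had 0.10, -0.11 and 0.28. The 7 nuclear core genes had 0.13, -0.02 and 0.02, so that LBP replicate 3 did not stand out there. The difference between core and accessory genes was not tested.
As a description, the mean correlation between pairs of the 37 genes over the 6 arrays was 0.41, and it was 0.45 after each group was centred on its own mean. The same means were 0.11 and 0.07 for complex III, 0.15 and 0.22 for complex IV, 0.23 and 0.24 for complex V, and 0.00 and 0.00 over all genes. The lists of complexes III, IV and V also hold assembly factors, such as Bcs1l, Cox10 and Atpaf1. The 37 genes leave assembly factors out, so these sets are not alike and no difference between complexes is read from them. All pairs share the same arrays and the same normalization.

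How many subunits appeared higher changed with the LBP sample left out. Without LBP replicate 2 the median of the structural subunits was 0.17, 24 of the 41 Nduf genes had LBP values above all PBS values (11.5% of all genes) and 2 had them below (11.9% of all genes), and 8 were higher at an unadjusted p under 0.05 (2.86% of all genes). These 8 were Ndufb11, Ndufb4, Ndufv2, Ndufb5, Ndufa4, Ndufb10, Ndufa12 and Ndufab1, with log2 fold changes from 0.23 to 0.77, and their lowest adjusted p from limma was 0.671. Without LBP replicate 3 the median of the structural subunits was 0.00, and 20 of the 41 Nduf genes were positive. Without PBS replicate 3, 3 Nduf genes (Ndufb11, Ndufv2 and Ndufa2) were higher at an unadjusted p under 0.05 (1.7% of all genes). Foxred1 did not follow this pattern, since its lowest value was in LBP replicate 3 and its highest LBP value in replicate 1.

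LBP replicate 2 also stood apart in genes of other tissues. The median of 6 markers of the central nervous system (Gfap, Mobp, Mog, Olig2, Aqp4 and Gad2) lay 1.13 above the PBS mean in this sample and from -0.09 to 0.07 in the remaining ones, with all 6 markers above it. The median of 7 skeletal muscle markers, a tissue rich in mitochondria, was 0.07, -1.18 and -0.35 in LBP replicates 1, 2 and 3, against 0.36, -0.94 and 0.58 in PBS replicates 1, 2 and 3. The most variable of them, Myh4, was at 8.97, 5.54 and 7.70 in LBP-treated DRGs, against 9.78, 7.22 and 9.79 in PBS-treated DRGs. The muscle median was lowest in LBP replicate 2 and PBS replicate 2, where the median subunit was at -0.05 and -0.00. The part of these tissues in the subunit values was not tested.
Of 6 fibroblast markers, 2 were lower at an unadjusted p under 0.05 (Col3a1 at -0.43 and Dpt at -0.40), against 2.65% of all genes. Of 6 satellite glia markers, 2 were higher at that threshold (Cdh19 at 0.49 and Kcnj10 at 0.29), against 2.07% of all genes, 5 of the 6 were positive, and Fabp7 was at -0.30. Of 6 adipocyte markers, Cidea was higher (0.37) while the other 5 were negative without passing, with a list median of -0.12. In the other marker lists (sensory neurons, Schwann cells, macrophages and erythroid cells) 0 genes had a p under 0.05 from limma, and none of the markers passed the adjustment.

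LBP replicate 2 was the lowest LBP sample in other groups of genes as well. In 76 genes of cytosolic ribosomal proteins, a list added after the subunit values were seen, the median was at 0.09, -0.06 and 0.24 in LBP replicates 1, 2 and 3, and at -0.11, 0.08 and 0.03 in PBS replicates 1, 2 and 3. Their median log2 fold change was 0.09, with 62 of 76 positive, and copies of these genes may share probes. The LBP medians matched those of the complex I subunits in order and nearly in size, and the LBP values of 2 of the 76 ribosomal genes lay above all PBS values with all arrays (4.35% of all genes) and those of 21 did so without LBP replicate 2 (11.5% of all genes). The ribosomal medians differed more among PBS samples.
Complexes III, IV and V of the respiratory chain, assembly factors included, had medians of 0.05 (10 of 13 positive), 0.09 (9 of 14) and 0.09 (14 of 18). In each, LBP replicate 2 was the lowest LBP sample. Complex II, which feeds electrons from succinate, had a median of 0.01 over 6 genes, assembly factors included. In these 4 complexes 0 genes had a p under 0.05 from limma (2.07% of all genes higher and 2.65% lower). For 8 genes of the Krebs cycle, also added later, the median was at 0.08, 0.04 and -0.12 in LBP replicates 1, 2 and 3, a different order from that of the subunits.

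**Figure D4:**
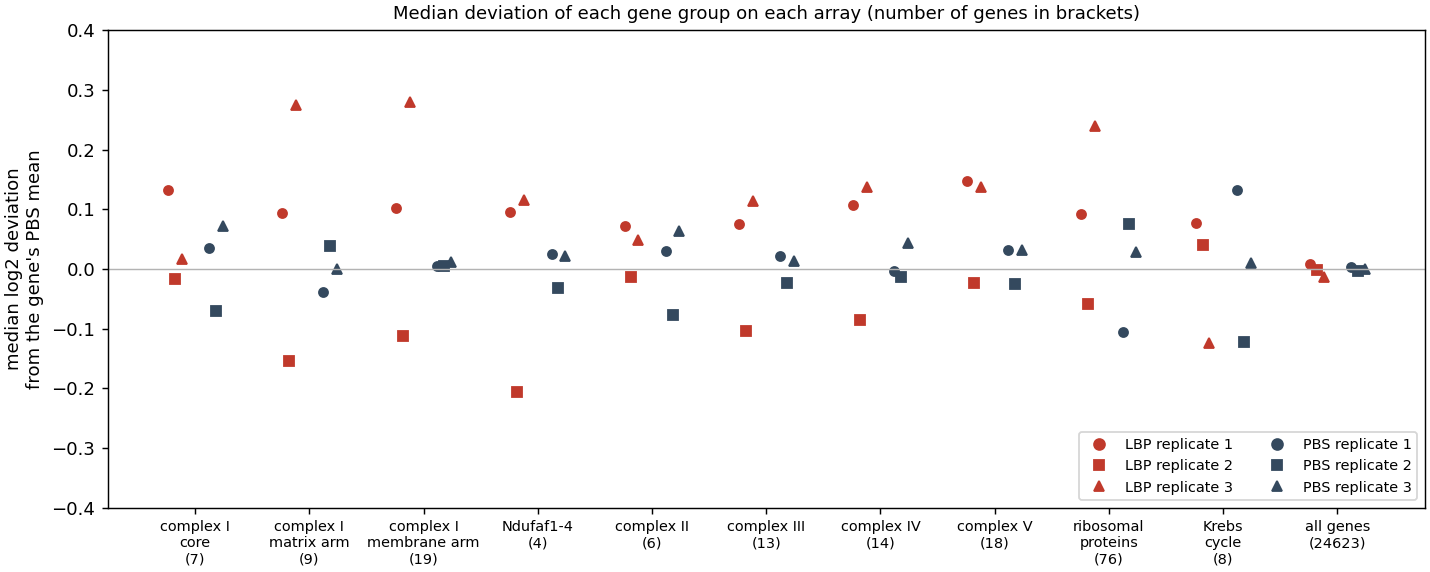
Median over the genes of each group of the log2 intensity minus the gene's PBS mean, on each array, with LBP left of PBS. The accessory subunits of complex I and the ribosomal proteins are lowest in LBP replicate 2 and highest in LBP replicate 3 among LBP samples, and all genes together lie near 0 on every array.

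Genes for supply and control of complex I had no call either. Mitochondrially encoded core subunits were measured for all 7 genes (ND1, ND2, ND3, ND4, ND4L, ND5 and ND6), with log2 fold changes from -0.02 to 0.09. All 7 were matched by their descriptions, and the deposited annotation does not place ND4L on the mitochondrial genome. For 6 of the 7 genes the mean was among the 100 highest in the table, where quantile normalization brings the values of the arrays close together by rank. ND4 held the top value of the array in all 6 samples. ND6 was at 11.59, 11.12 and 12.06 in LBP-treated DRGs, against 11.20, 11.75 and 11.57 in PBS-treated DRGs, with overlapping groups. The medians were 0.07 over 13 measured genes of iron-sulfur cluster assembly (10 positive), 0.05 over 5 genes of riboflavin and FAD supply (4 positive) and 0.02 over 10 regulators of mitochondrial biogenesis such as Ppargc1a, Nrf1 and Tfam (6 positive). In these lists 0 genes had a p under 0.05 from limma (2.07% of all genes higher and 2.65% lower).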

How the data were processed

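L4/5 DRGs of LBP-treated and PBS-treated mice (3 samples each) were profiled with GeneChip Mouse Gene 2.0 ST arrays. Titles and treatment labels gave the groups, although the treatment protocol names LBP for all 6 samples. The authors used MAS5 in expresso for probe summaries, gave a rule for omitting outlier arrays and applied quantile normalization. No omitted array is named. The deposited values are log2 intensities (2.02 to 13.8). For software versions and the genome build, the sources used here give nothing. The table also holds the authors' fold changes and p-values, including 3 columns for single arrays, which were not used.

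Of 24647 rows, 24 with dates in place of symbols were dropped. The other 24623 genes were fitted in limma 3.58.1 (lmFit, eBayes; R 4.3.3) with treatment as the only factor (prior of 5.90 degrees of freedom). Two-sided p-values were adjusted over all genes by the Benjamini-Hochberg method. The fit was also run on simulated data in which genes vary independently. The members here were correlated, so nothing about them is read from that run. Precision is limited by the number of arrays, and r between arrays was 0.990 to 0.994. List symbols were matched through RefSeq synonyms or descriptions where the table has older names (17 matches). RefSeq promoter windows of 300 bases around a start are from GRCm38.p6.

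Members, lists and tests were chosen with earlier results of these data known. The text names Foxred1, all Ndufaf genes, the nuclear core subunits, other Nduf genes at an unadjusted p under 0.05, the 3 highest and 3 lowest Nduf genes, the neighbours of Foxred1, and list genes at that p. Others are given by value or range, and a few genes are not reported here by name. Alternatives were an intensity trend with a robust prior, dim genes left out, array weights, centring on medians, the replicate number as a block, and each array left out.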

Additional observations from a re-analysis of the deposited data

How the results depend on the processing

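Foxred1 kept its direction under all 11 alternatives, with log2 fold changes from -0.78 to -0.60. It was chosen on this difference and its groups did not overlap, so leaving out an array could not change the direction. The other alternatives used the same 6 arrays, and nothing is read from the kept direction. Ndufb11 stayed positive with an unadjusted p under 0.05 from limma under all 11, an alternative check added after seeing the data. It was singled out for its large difference on these same arrays, so nothing is read from this either. No Nduf gene was lower at an unadjusted p under 0.05 under any of them. The number of all genes at an adjusted p under 0.05, which was 2, became 6 with an intensity trend and robust prior, 4 without dim genes, 4 with array weights and 4 with the replicate block, and 1 to 2 when single arrays were left out (1 without LBP replicate 3 or any PBS array). The count of Nduf genes higher at an unadjusted p under 0.05 was 1 (2.07% of all genes). It became 2 with the trend and robust prior and 2 with the replicate block (Ndufv2 beside Ndufb11). The share of all genes was not counted under these settings, so nothing is read from these counts. When single arrays were left out, the count was 8 without LBP replicate 2 (2.86% of all genes). It was 3 without PBS replicate 3 (1.7% of all genes) and 1 for each other array (1.74% to 2.4% of all genes). The count of Nduf genes with groups that did not overlap, which was 3, was 5 to 26 without single arrays (26 when LBP replicate 2 was dropped, 7 when PBS replicate 1 was dropped and 5 for each other array), where fewer arrays have to separate. The 26 were 24 higher and 2 lower (11.5% and 11.9% of all genes), and the 7 were 6 higher and 1 lower (9.13% and 9.53% of all genes). For the other arrays, 3 to 5 were higher (8.04% to 9.5% of all genes) and 0 to 2 lower (8.8% to 11.1% of all genes). That count does not use the fit, so the trend, the array weights and the replicate block give it no value of their own. The median of Ndufaf1 to Ndufaf4 lay between -0.06 and 0.12 without single arrays, and that of the structural subunits was 0.00 without LBP replicate 3 and 0.17 without LBP replicate 2. Same-numbered arrays deviated with r of 0.11, -0.03 and 0.08, and 2 of 6 arrays matched best with their own number. No pairing by replicate number was seen, but 3 arrays per group cannot exclude it. The cause of these changes was not tested.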
